A study of Homo sapiens with 12 samples.

Results

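The messages of 6 cytoplasmic tyrosine kinases, SYK, SRC, FYN, YES1, LYN and PTK2, were followed in spheroids of the DU145 line, which was established from a human prostate cancer. They were chosen by gene symbol as SYK, 4 kinases of the Src family and FAK (the product of PTK2), and they are 6 of the 26485 genes in the deposited tables. All 6 passed the filter on low counts, which left 14732 genes to test. SYK is also among the genes that the study picked from these same samples for further experiments, so its direction in them is not independent evidence. For the picked genes, the study also reports the difference by quantitative PCR in spheroids with and without α2 integrin.

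The 12 samples came from 3 lines with 4 replicates each, and all 3 lines carry a Crispr/Cas9 knockout of ITGA2, the gene of α2 integrin. DU145KO was not transfected further, DU145KO+α2 was stably transfected with α2 integrin cDNA in the pAWneo2 vector, and DU145KO+vector was stably transfected with the empty pAWneo2 vector. Spheroids of 8000 cells were grown in serum-free RPMI 1640 for 72 hours. The methods describe one knockout line, selected by GFP and by loss of the surface protein, and one stable line per plasmid, both kept in geneticin, which DU145KO was not. The replicates therefore measure the spread within a line, and α2 integrin cannot be told apart from any other difference between one transfected line and the others.

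Integrins have no kinase activity of their own, and signal by recruiting cytoplasmic tyrosine kinases to the sites where cells hold the matrix. FAK and the Src family kinases form a complex there that phosphorylates adaptors such as p130Cas and paxillin. SYK is best known from blood cells, where it binds phosphorylated ITAM motifs of immune receptors after Src family kinases have acted on them, and it is also expressed in epithelial cells. Integrin α2β1 is a receptor for collagen. The comparison of DU145KO+α2 with DU145KO+vector and with DU145KO asks which of these kinase messages differ when the receptor is present, and DU145KO+vector against DU145KO shows the difference between lines without it.

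Between 13948734 and 19988111 counts per sample fell on genes, and the 6 kinases took between 0.0565% and 0.0702% of them. A count of 3, taken as the limit of detection, corresponds to 0.150 to 0.215 CPM (counts scaled to library size by TMM), and this limit covers counting error only. ITGA2 had 259 to 332 CPM in DU145KO+α2, and only 13.0 to 20.2 CPM in DU145KO+vector and 15.7 to 25.8 CPM in DU145KO, so the levels followed the labels. The count of ITGA2 includes the message of the transfected cDNA where it matches the gene, and the editing itself is not visible in it. All 6 epithelial markers (EPCAM, CDH1, KRT7, KRT8, KRT18 and KRT19) were tested, while KLK3 and KLK2, the secreted proteases of luminal prostate cells, had 0 counts in every sample. Of 10 leukocyte markers, 8 had at most 3 counts in every sample, among them PTPRC (CD45) with at most 1 and MS4A1 with 0.

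SYK carried the largest difference among the 6 kinases. It lies on chromosome 9 (GRCh38.p14, chr9:90801600-90898549, plus strand), and none of its exon bases is shared with another gene of the tables. Of its 3 annotated start windows in RefSeq, the outermost and the innermost are printed. The other one overlaps the end of the outermost window, holds the most CG sites of the 3, and is described by counts only. Each window is the 250 bases before an annotated start, written 5′ to 3′ on the plus strand. Capitals mark CG dinucleotides, the sites at which DNA is methylated.
SYK outermost start, chr9:90801350-90801599: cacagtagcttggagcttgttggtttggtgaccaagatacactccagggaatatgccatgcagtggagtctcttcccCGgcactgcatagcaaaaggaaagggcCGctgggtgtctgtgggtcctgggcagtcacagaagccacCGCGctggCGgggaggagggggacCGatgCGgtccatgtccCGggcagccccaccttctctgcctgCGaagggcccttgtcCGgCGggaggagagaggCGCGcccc
SYK innermost start, chr9:90827170-90827419: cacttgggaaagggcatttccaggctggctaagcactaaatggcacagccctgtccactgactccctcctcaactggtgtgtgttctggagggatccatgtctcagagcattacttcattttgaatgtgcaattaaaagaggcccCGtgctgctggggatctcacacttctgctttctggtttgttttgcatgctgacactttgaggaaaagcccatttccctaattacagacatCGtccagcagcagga
The outermost window held 13 CG sites at 64.0% GC, and 46.6% of 35116 RefSeq windows of this length held at least as many. The innermost window held 2 CG sites at 49.2% GC, and 85.3% of windows held at least as many. The third window, chr9:90801569-90801818, held 32 CG sites, a number reached by 9.52% of windows. It also held 3 copies of GGGCGG, the core of the GC box, searched on both strands and present in 42.6% of windows, whereas neither printed window had one. None of the 3 windows held TATAAA on either strand, which 10.7% of windows do. Counts per gene do not show which of these starts was used.

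The reads on SYK numbered 112, 141, 129 and 118 in DU145KO, 141, 105, 118 and 86 in DU145KO+vector, and 27, 36, 18 and 26 in DU145KO+α2 (replicates 1 to 4). Scaled for depth, these were 7.40, 8.61, 7.92 and 6.90 CPM in DU145KO, 7.81, 7.54, 6.78 and 5.92 CPM in DU145KO+vector, and 1.68, 1.8, 1.06 and 1.65 CPM in DU145KO+α2. All 4 samples of DU145KO+α2 lay far below all 8 samples of the lines without α2 integrin, and all 12 lay above the limit of detection. Relative to DU145KO+vector, the SYK message of DU145KO+α2 was 4.51-fold lower (log2 fold change −2.17, SE 0.173, 95% interval −2.54 to −1.81, adjusted p = 2.44e-06 in edgeR's quasi-likelihood test). Against DU145KO it was 4.95-fold lower (log2 fold change −2.31, SE 0.172, 95% interval −2.67 to −1.94, edgeR adjusted p = 9.57e-07). Between DU145KO+vector and DU145KO the log2 fold change was −0.14 (95% interval −0.45 to 0.18, edgeR adjusted p = 0.746), and the samples of these lines overlapped. In this bulk RNA, fewer cells with the message and less message per cell cannot be told apart.

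The size of the SYK difference was alike in the 4 replicates. Taken between samples of the same replicate number, the log2 difference from DU145KO+vector was −2.14, −2.0, −2.54 and −1.77, and from DU145KO it was −2.07, −2.19, −2.76 and −1.98. Replicate 3 gave the widest difference in both comparisons, and DU145KO+α2 replicate 3 had the lowest SYK level of all 12 samples. When each of the 12 samples was left out in turn, the fitted log2 fold change stayed between −2.26 and −2.02 against DU145KO+vector and between −2.40 and −2.15 against DU145KO.

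**Figure D1:**
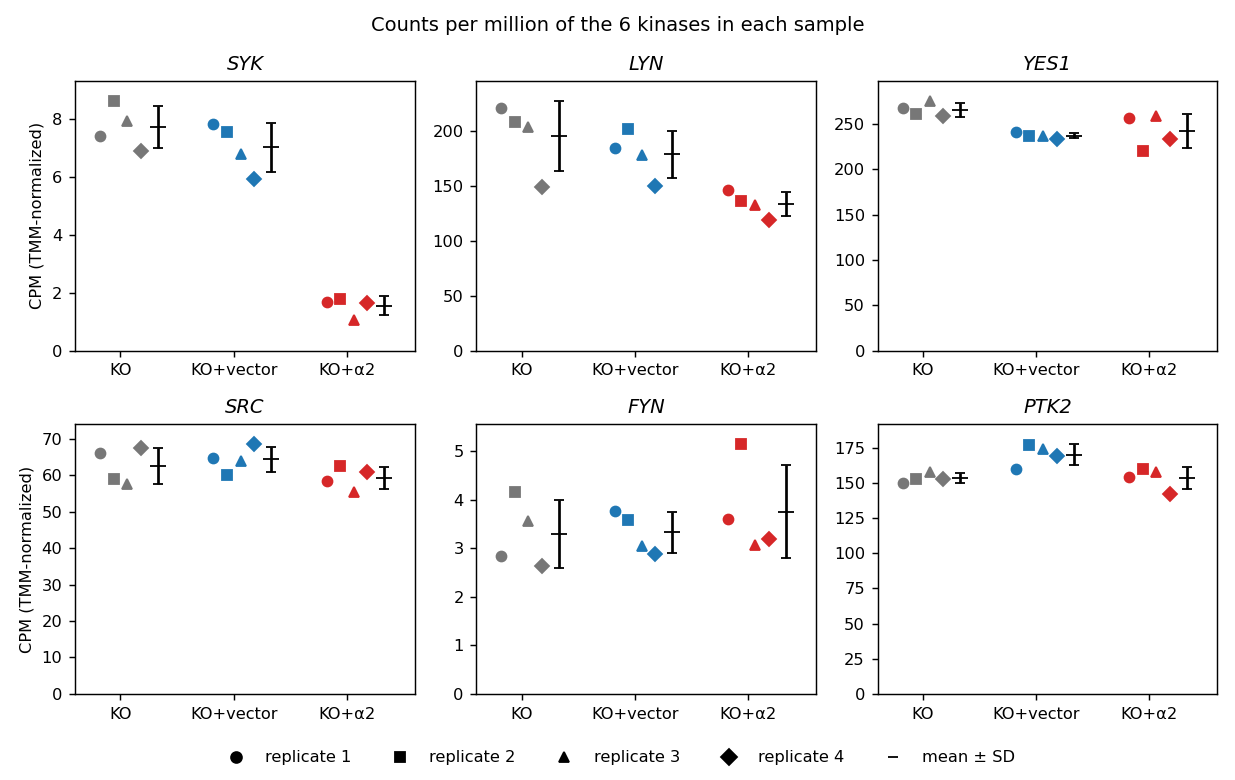
TMM-normalized CPM of each of the 6 kinases in the 12 samples, with the mean and SD of the 4 replicates of each line beside the points. SYK in DU145KO+α2 lies at 1.06 to 1.8 CPM, under every sample of the other lines, and LYN in DU145KO+α2 lies at 119 to 146 CPM. The means of the other kinases differ less between lines, and the values of FYN are the least precise.

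Of the 6 kinases, 2 differed between DU145KO+α2 and DU145KO+vector at an adjusted p below 0.05, SYK and LYN, and both were lower. In this comparison 11.9% of all genes tested passed the same threshold in either direction. Only SYK was also changed by more than 2-fold, the limit used for a differentially expressed (DE) gene, which 2.21% of genes passed. Against DU145KO the same 2 kinases passed, again lower in DU145KO+α2, where 8.17% of genes did so, and SYK alone was DE, where 2.1% of genes were. Both comparisons share the samples of DU145KO+α2. Between DU145KO+vector and DU145KO edgeR called 0 of the 6, where 2.34% of genes had an adjusted p below 0.05 and 0.835% were DE. YES1 and PTK2 had an unadjusted edgeR p below 0.05 in that comparison (0.0286 and 0.0313), as had 2214 of the 14732 genes tested. DESeq2 and voom with limma also called 0 of the 6 kinases. The median log2 fold change of all genes was −0.0062, −0.0031 and −0.0011 in the 3 comparisons.

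LYN, a Src family kinase that phosphorylates ITAM motifs in B cells and mast cells and is also expressed in many carcinoma lines, was the other kinase that fell. LYN was measured at 221, 208, 204 and 149 CPM in DU145KO, at 185, 202, 178 and 150 CPM in DU145KO+vector, and at 146, 136, 133 and 119 CPM in DU145KO+α2. The samples of DU145KO+α2 did not overlap with those of either other line, but its highest sample, replicate 1, was close to replicate 4 of both. Replicate 4 was the lowest sample of LYN in all 3 lines. Relative to DU145KO+vector, LYN in DU145KO+α2 was 1.34-fold lower (log2 fold change −0.42, SE 0.116, 95% interval −0.67 to −0.18, edgeR adjusted p = 0.0258) and relative to DU145KO 1.47-fold lower (log2 fold change −0.55, SE 0.116, 95% interval −0.80 to −0.31, edgeR adjusted p = 0.00682). The lines without α2 integrin differed in LYN by −0.13 (95% interval −0.38 to 0.11, edgeR adjusted p = 0.671).

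The call of LYN against DU145KO+vector depended on single samples in the fit without the replicate number. Its edgeR adjusted p was 0.0502, 0.0684 and 0.0815 without DU145KO+α2 replicate 2, 3 and 4, and 0.0657, 0.0869 and 0.0581 without DU145KO+vector replicate 1, 2 and 3, while the log2 fold change stayed between −0.50 and −0.36. With the replicate number as a block, a fit that compares samples of the same number, the adjusted p of LYN was 9.51e-06 with all samples and at most 0.00019 with any 1 sample left out. Against DU145KO, LYN passed in every fit run, with adjusted p-values up to 0.0279.

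**Figure D2:**
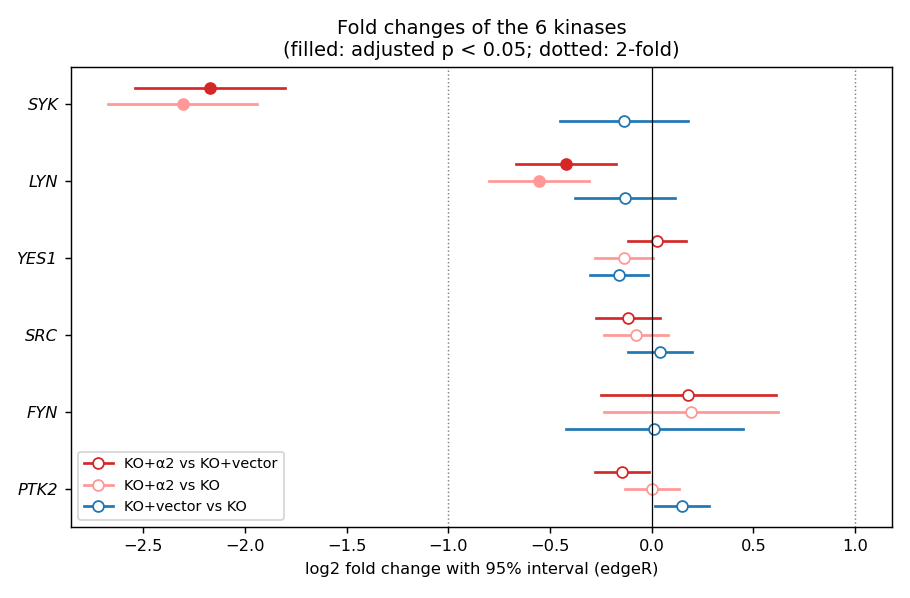
Log2 fold change of each kinase in the 3 comparisons, with 95% intervals from edgeR. Filled points have an adjusted p below 0.05 and the dotted lines mark 2-fold. SYK lies at −2.17 and −2.31 and LYN at −0.42 and −0.55 in the comparisons with DU145KO+α2, and every other interval lies within 2-fold.

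YES1, a widely expressed Src family kinase, was the most abundant of the 6 messages per length. It had 267, 261, 275 and 258 CPM in DU145KO, 241, 237, 237 and 233 CPM in DU145KO+vector, and 256, 220, 258 and 233 CPM in DU145KO+α2. DU145KO lay above DU145KO+vector without overlap, and DU145KO+α2 spread across both. The log2 fold change between DU145KO+vector and DU145KO was −0.16 (95% interval −0.30 to −0.02, edgeR adjusted p = 0.262), and with the replicate block its edgeR adjusted p was 0.0390. With the block and any 1 sample left out YES1 passed in 3 of 12 fits, with adjusted p-values up to 0.165, and the call was lost without any one of the 8 samples of the lines compared, or without DU145KO+α2 replicate 3. DU145KO+α2 differed from DU145KO+vector by 0.03 (95% interval −0.12 to 0.17, edgeR adjusted p = 0.862) and from DU145KO by −0.13 (95% interval −0.28 to 0.01, edgeR adjusted p = 0.263). Of the YES1 exon bases, 6.14% overlap unnamed annotated genes on the opposite strand that are not in the tables. A processed copy of the gene, YES1P1, lies on chromosome 22. The authors counted uniquely aligned reads, so reads that match both copies would be missing from the YES1 count.

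PTK2 encodes FAK, the kinase that is recruited to clustered integrins and autophosphorylated there. Its message stood at 150, 153, 158 and 153 CPM in DU145KO, at 160, 177, 174 and 169 CPM in DU145KO+vector, and at 154, 160, 158 and 142 CPM in DU145KO+α2. DU145KO+vector was the highest line and did not overlap with the other two, although its lowest sample and the highest sample of DU145KO+α2 both round to 160 CPM. Relative to DU145KO+vector, DU145KO+α2 differed by a log2 fold change of −0.15 (SE 0.0623, 95% interval −0.28 to −0.01, edgeR adjusted p = 0.152). With the replicate block its edgeR adjusted p was 0.0317. With the block and any 1 sample left out PTK2 passed in 6 of 12 fits, with adjusted p-values up to 0.149, and the call was lost without DU145KO replicate 1, DU145KO+α2 replicate 3 or 4, or DU145KO+vector replicate 2, 3 or 4. It differed from DU145KO by 0.0006 (95% interval −0.13 to 0.13, edgeR adjusted p = 0.998), and between DU145KO+vector and DU145KO by 0.15 (95% interval 0.01 to 0.28, edgeR adjusted p = 0.273).

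SRC, the founding member of its family, had 66.2, 58.9, 57.5 and 67.5 CPM in DU145KO, 64.8, 60.1, 64.0 and 68.5 CPM in DU145KO+vector, and 58.4, 62.5, 55.4 and 60.8 CPM in DU145KO+α2. The 3 lines overlapped. The log2 fold change of DU145KO+α2 was −0.12 against DU145KO+vector (95% interval −0.28 to 0.04, edgeR adjusted p = 0.362) and −0.08 against DU145KO (95% interval −0.23 to 0.08, edgeR adjusted p = 0.631). For DU145KO+vector against DU145KO it was 0.04 (95% interval −0.12 to 0.20, edgeR adjusted p = 0.860).

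FYN, a Src family kinase with known roles in T cells and neurons, was the scarcest message of the Src family kinases followed, and its values were the least precise. It gave 2.84, 4.15, 3.56 and 2.63 CPM in DU145KO, 3.77, 3.59, 3.05 and 2.89 CPM in DU145KO+vector, and 3.60, 5.14, 3.07 and 3.18 CPM in DU145KO+α2. The 3 lines overlapped, and DU145KO+α2 replicate 2 was the highest sample. The log2 fold change of DU145KO+α2 was 0.18 against DU145KO+vector (95% interval −0.25 to 0.61, edgeR adjusted p = 0.648) and 0.19 against DU145KO (95% interval −0.24 to 0.62, edgeR adjusted p = 0.660). Without DU145KO+α2 replicate 2 these turned to −0.02 and −0.0069. DU145KO+vector and DU145KO differed by 0.01 (95% interval −0.42 to 0.45, edgeR adjusted p = 0.988).

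An exact permutation test of log2 CPM, 2-sided with 4 samples against 4, was run for the 6 kinases in the 3 comparisons, which gives 18 tests. The smallest p it can give is 0.0286, reached when the lines compared do not overlap. SYK and LYN reached it in both comparisons with DU145KO+α2. PTK2 reached it in both comparisons with DU145KO+vector, and YES1 between DU145KO+vector and DU145KO. The share of all genes that reach it was not computed, so how usual such a lack of overlap is among genes is not known. By a different measure, an unadjusted edgeR p below 0.05, 3670 of 14732 genes passed in DU145KO+α2 against DU145KO+vector and 3147 against DU145KO. Between DU145KO+vector and DU145KO 2214 did. After Benjamini-Hochberg adjustment over the 18 tests the exact p of 0.0286 becomes 0.0735, so no kinase passed in the permutation test alone. This adjusted value depends on how many of the 18 tests reached the smallest p.

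Per length, the kinases fell into separate tiers. In DU145KO the deposited RPKM (reads scaled to gene length and library size) was 56.1 ± 1.49 for YES1, 46.6 ± 7.60 for LYN, 32.6 ± 0.424 for PTK2, 14.6 ± 1.27 for SRC, 1.42 ± 0.130 for SYK and 0.842 ± 0.174 for FYN (mean ± SD, n = 4), and no neighbours in this order overlapped. DU145KO+vector had the same order, from 50.5 ± 0.996 for YES1 to 0.857 ± 0.114 RPKM for FYN (SD, n = 4), but LYN at 42.9 ± 5.39 and PTK2 at 36.4 ± 1.44 overlapped (SD, n = 4). In DU145KO+α2 the order changed at both places. PTK2 stood at 32.9 ± 1.85 and LYN at 32.1 ± 2.98 RPKM (SD, n = 4), and these overlapped, with PTK2 above LYN in 3 of 4 samples.

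SYK became the scarcest of the 6 in DU145KO+α2, at 0.289 ± 0.0626 RPKM, below FYN at 0.968 ± 0.251 RPKM (SD, n = 4), without overlap. The ratio of SYK to FYN in RPKM was 1.72 ± 0.199 in DU145KO, 1.53 ± 0.0574 in DU145KO+vector and 0.304 ± 0.0627 in DU145KO+α2 (SD, n = 4). SYK was the higher of the pair in all 8 samples without α2 integrin and the lower in all 4 with it. The lengths behind the RPKM are those the authors used, so the order between genes depends on their gene models, while the comparison of lines does not.

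**Figure D3:**
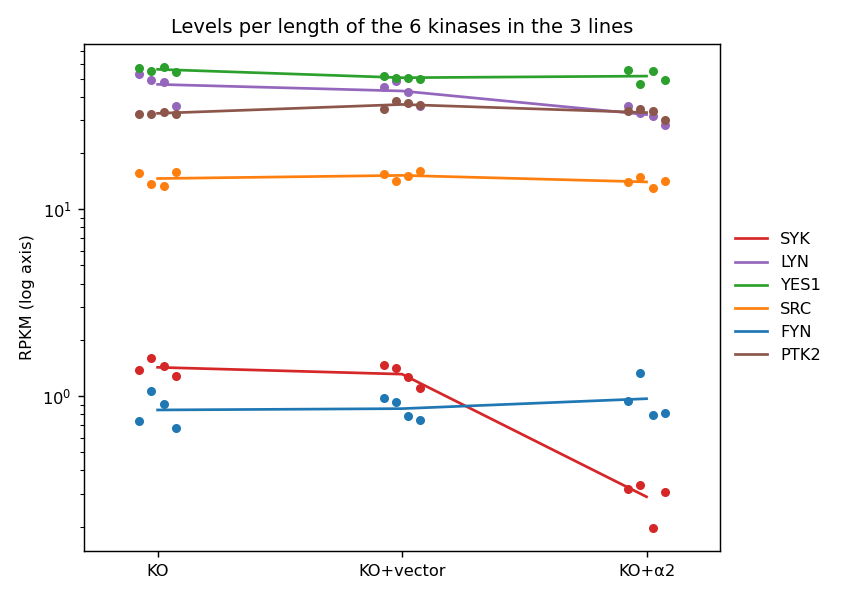
Deposited RPKM of the 6 kinases on a log axis, with 1 point per sample and lines joining the means of the 3 cell lines. YES1, LYN and PTK2 form the upper tier, SYK falls from 1.42 and 1.31 RPKM to 0.289 RPKM in DU145KO+α2 and crosses FYN, and LYN comes down to the level of PTK2.

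The Src family messages were mostly those of YES1, LYN and SRC. Over 8 genes (SRC, FYN, YES1, LYN, LCK, FGR, BLK and FRK), the summed RPKM was 108 to 128 in DU145KO, 103 to 115 in DU145KO+vector and 93.8 to 107 in DU145KO+α2. The lowest line overlapped with DU145KO+vector and not with DU145KO. LYN made up 38.8 ± 3.95% of this sum in DU145KO, 38.7 ± 3.10% in DU145KO+vector and 32.1 ± 1.7% in DU145KO+α2 (SD, n = 4). YES1 made up 47.0 ± 2.55%, 45.8 ± 1.65% and 51.7 ± 2.28% in the same order of lines (SD, n = 4). LCK, FGR, BLK and FRK together held about 1% of it, at 1.21 ± 0.195%, 1.06 ± 0.118% and 1.1 ± 0.185% (SD, n = 4). LCK, FGR and BLK, kinases of blood cells, had at most 3 counts in every sample.

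The epithelial markers were read beside SYK. Their summed level, over 6 genes, was 1780 to 2250 CPM in DU145KO, 1720 to 2000 CPM in DU145KO+vector and 1290 to 1700 CPM in DU145KO+α2. CDH1 (E-cadherin), with means of 134, 99.8 and 61.3 CPM in that order, was the 1 of 6 that passed in DU145KO+α2 against DU145KO+vector (log2 fold change −0.70, edgeR adjusted p = 0.00981). In that comparison 11.9% of all genes passed. Against DU145KO, where 8.17% of all genes passed, 3 of 6 did. They were CDH1 (−1.13, edgeR adjusted p = 0.00054), EPCAM (−1.14, edgeR adjusted p = 1.86e-05) and KRT18 (−0.42, edgeR adjusted p = 0.0434). EPCAM, with means of 159, 89.4 and 72.1 CPM, also fell between DU145KO and DU145KO+vector (log2 fold change −0.83, edgeR adjusted p = 0.00093), where SYK did not pass. KRT19, with means of 207, 224 and 198 CPM, KRT7 and KRT8 passed in no comparison. The part of the epithelial markers in the SYK difference was not tested. The leukocyte markers summed to 3.31 to 4.21, 1.77 to 4.41 and 2.05 to 4.64 CPM in DU145KO, DU145KO+vector and DU145KO+α2, with no line apart, and the level came almost entirely from CD14 and ITGAM.

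The genes around SYK were read to see how far along the chromosome the difference reached. Of the 20 tested genes nearest to SYK, 10 on each side, 14 were lower and 6 higher in DU145KO+α2 relative to DU145KO+vector. Their median log2 fold change was −0.26. An edgeR adjusted p below 0.05 was reached by 7 of the lower and 3 of the higher ones, beside 11.9% of all genes. Against DU145KO, 15 were lower with a median of −0.16, and 1 in each direction passed, beside 8.17% of all genes. SYK itself lay −1.92 and −2.14 from these medians. The immediate neighbours on both sides, singled out after their values were seen, had lower values too. DIRAS2, a small GTPase of the Ras family, had 2.44 to 2.93 CPM in DU145KO, 2.87 to 3.80 CPM in DU145KO+vector and 1.12 to 1.8 CPM in DU145KO+α2. Its log2 fold change was −1.17 (SE 0.187, edgeR adjusted p = 0.000742) and −0.84 (SE 0.190, edgeR adjusted p = 0.0107). LOC100129316, on the other side, had a log2 fold change of −0.79 (SE 0.225, edgeR adjusted p = 0.0309) and −0.73 (SE 0.226, edgeR adjusted p = 0.0572), on counts of 21 to 71. Farther out, CENPP (−0.81, edgeR adjusted p = 0.0194), IPPK (−0.40, 0.0132), CDK20 (−0.31, 0.047), SECISBP2 (−0.27, 0.027) and SPTLC1 (−0.25, 0.0194) were also lower against DU145KO+vector. None of these passed against DU145KO. SEMA4D was higher against DU145KO+vector (0.40, edgeR adjusted p = 0.00201). NFIL3 rose against DU145KO+vector by 0.40 (edgeR adjusted p = 0.00618) and against DU145KO by 0.31 (edgeR adjusted p = 0.0338) on the log2 scale. GADD45G was at 0.79 (edgeR adjusted p = 0.0018) against DU145KO+vector but at 0.01 against DU145KO, where it did not pass, and it was lower in DU145KO+vector relative to DU145KO (−0.77, edgeR adjusted p = 0.00818). The part of the region in the SYK difference was not tested.

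Around LYN the picture differed. LYN and its 20 nearest tested genes lie on chromosome 8. In DU145KO+α2 the median log2 fold change of these neighbours was 0.06 against DU145KO+vector and −0.03 against DU145KO. Against DU145KO+vector 4 of the 20 had an edgeR adjusted p below 0.05, beside 11.9% of all genes. These 4 were all higher (SOX17, RP1, PLAG1 and SDR16C5, named after their values were seen). LYN lay −0.48 and −0.53 from the medians of its neighbours. PTK2 lies farther along chromosome 8, and its neighbours had medians of 0.14 and −0.03, from which PTK2 lay −0.29 and 0.03. Between DU145KO+vector and DU145KO the neighbours of PTK2 had a median of −0.15, whereas PTK2 was at 0.15. The neighbours of SRC on chromosome 20, of FYN on chromosome 6 and of YES1 on chromosome 18 had medians of −0.12, 0.04 and 0.08 against DU145KO+vector, and SRC, FYN and YES1 lay −0.0008, 0.14 and −0.06 from them.

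**Figure D4:**
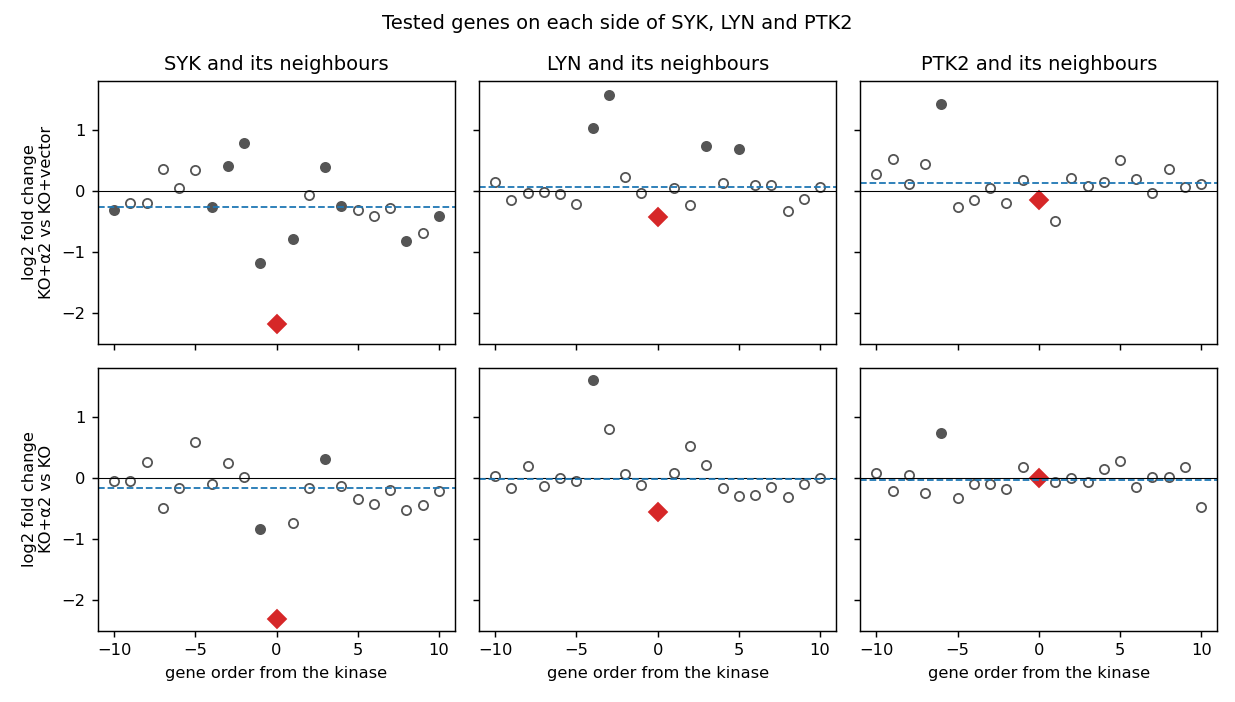
Log2 fold change of the 10 tested genes on each side of SYK, LYN and PTK2 in order of position, for DU145KO+α2 against DU145KO+vector (top) and DU145KO (bottom). Red diamonds are the kinases, circles the neighbours, filled where the edgeR adjusted p is below 0.05, and dashed lines the neighbours' medians. SYK lies below all its neighbours, and the nearest on each side, DIRAS2 and LOC100129316, are lower as well.

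The other cytoplasmic tyrosine kinases were the first group of partners read. Of 26 such kinases, 16 were expressed enough to be tested. In DU145KO+α2 against DU145KO+vector 1 was higher and 3 were lower at an adjusted p below 0.05, 4 of 16 where 11.9% of all genes passed, and the group's median log2 fold change was −0.07 against −0.0062 over all genes. PTK2B (Pyk2), the closest relative of FAK, was the one that rose. PTK2B had 58.8, 45.2, 36.3 and 43.1 CPM in DU145KO, 44.1, 32.5, 30.1 and 35 CPM in DU145KO+vector, and 67.0, 67.0, 69.6 and 72.1 CPM in DU145KO+α2. DU145KO+α2 was the highest line without overlap. The log2 fold change of PTK2B was 0.96 against DU145KO+vector (SE 0.133, edgeR adjusted p = 0.00031) and 0.59 against DU145KO (SE 0.132, edgeR adjusted p = 0.0111). The replicate block raised the share of all genes that passed to 26.5% against DU145KO+vector, 22.3% against DU145KO and 13.4% between DU145KO+vector and DU145KO, and counts with the block are to be read beside these. Per length, PTK2B stood at 14.3 ± 0.407 RPKM in DU145KO+α2, near SRC at 14.0 ± 0.758 RPKM, and at 7.37 ± 1.32 RPKM in DU145KO+vector (SD, n = 4).

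The 3 kinases that fell against DU145KO+vector were JAK2, which serves cytokine receptors, FES and PTK6, an epithelial kinase distantly related to SRC. JAK2 changed by −0.43 (SE 0.111, edgeR adjusted p = 0.0171), FES by −1.28 (SE 0.366, edgeR adjusted p = 0.0314) and PTK6 by −0.56 (SE 0.175, edgeR adjusted p = 0.0493) on the log2 scale. FES had only 3 to 21 counts per sample. PTK6 was at −0.03 against DU145KO (edgeR adjusted p = 0.958), and DU145KO+vector was above DU145KO by 0.53 (edgeR adjusted p = 0.142, with the block 0.00653). JAK2 was at −0.31 against DU145KO (edgeR adjusted p = 0.105). Against DU145KO, PTK2B rose and FES fell (log2 fold change −1.31, edgeR adjusted p = 0.0349), 2 of 16 where 8.17% of all genes passed, with a group median of −0.14, and with the replicate block 1 was higher and 4 lower. Between DU145KO+vector and DU145KO edgeR called 0 of the 16 without the block and 4 with it. Before adjustment 4 of the 16 had an edgeR p below 0.05 there, where 2214 of 14732 genes did. PTK6 (edgeR unadjusted p = 0.00812) and PTK2B (0.0147) were among these 4. The 10 kinases not tested, among them ZAP70, the closest relative of SYK, and BTK, had at most 7 counts in any sample.

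The next group holds the receptors, adaptors and effectors through which SYK acts in immune cells. Of 22 genes of the ITAM pathway 15 were tested, and their median log2 fold change was −0.0003 against DU145KO+vector and −0.09 against DU145KO. VAV2, an exchange factor for small GTPases, was the 1 of 15 that passed against DU145KO+vector (11.9% of all genes did), at −0.34 (SE 0.0681, edgeR adjusted p = 0.00398), and with the replicate block 4 were higher and 2 lower (26.5% of all genes passed). FCER1G, an ITAM adaptor of Fc receptors, was at 1.15 (SE 0.413, edgeR adjusted p = 0.0856, with the block 0.00686) and CD79A at −0.82 (SE 0.382, edgeR adjusted p = 0.219). Against DU145KO 2 of 15 passed (8.17% of all genes did). PLCG1, the phospholipase Cγ1 that SYK and Src family kinases activate, rose by 0.39 (SE 0.0922, edgeR adjusted p = 0.0154). FCGR2A, an Fc receptor with an ITAM motif, changed by −1.18 (SE 0.238, edgeR adjusted p = 0.00514), but near-identical copies of this gene make its count uncertain. Of the 7 genes not tested, TYROBP and CD79B had 0 counts in every sample, and the highest count among the 7 was 11, for CD247. For DU145KO+vector against DU145KO edgeR called 0 of the 15 without the block and 3 with it. Before adjustment 3 of the 15 had an edgeR p below 0.05, among them VAV2 at 0.0119 and PLCG1 at 0.0468. Over all genes 2214 of 14732 did. VAV2 was higher in DU145KO+vector than in DU145KO by 0.19 (edgeR adjusted p = 0.172, with the block 0.0221). In DU145KO+α2 against DU145KO it was at −0.14 (edgeR adjusted p = 0.241).

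The scaffolds and substrates of FAK and Src were, in contrast, nearly all expressed, with 28 of 30 tested. Their median log2 fold change was 0.02 against DU145KO+vector, where 3 were higher and 2 lower (5 of 28, beside 11.9% of all genes). SHC1, an adaptor that links tyrosine kinases to Ras, rose by 0.55 (SE 0.116, edgeR adjusted p = 0.00522). ELMO1, which acts with DOCK1 on Rac, rose by 1.26 (SE 0.367, edgeR adjusted p = 0.0342) on counts of 3 to 29, and RASA1, the p120 Ras GTPase-activating protein, rose by 0.25 (SE 0.0691, edgeR adjusted p = 0.0238). ARHGEF28, an exchange factor that binds FAK, changed by −0.52 (SE 0.103, edgeR adjusted p = 0.00346), and RAPGEF1, which activates Rap1 downstream of Crk, by −0.30 (SE 0.0893, edgeR adjusted p = 0.0377).

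Only ARHGEF28 of these 5 also passed in the fit without the block against DU145KO, at −0.46 (SE 0.103, edgeR adjusted p = 0.0101), while SHC1 was at 0.27 (edgeR adjusted p = 0.184), or 0.00234 with the block. TGFB1I1 (Hic-5), a relative of paxillin, rose against DU145KO by 0.69 (SE 0.196, edgeR adjusted p = 0.0381), where 2 of 28 passed (8.17% of all genes did) and the group median was −0.03. RASA1 was lower in DU145KO+vector than in DU145KO by −0.29 (SE 0.0691, edgeR adjusted p = 0.0387), so that its rise was against a line in which it had fallen. BCAR1 (p130Cas), PXN (paxillin) and CRK, the central adaptors of the FAK and Src complex, stood at 0.03, −0.05 and −0.03 on the log2 scale against DU145KO+vector, and each missed the threshold by far (edgeR adjusted p = 0.901, 0.793 and 0.866). With the replicate block the counts were 5 higher and 4 lower against DU145KO+vector and 3 and 3 against DU145KO, and 3 were lower in DU145KO+vector against DU145KO.

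Of 26 genes listed as negative regulators of these kinases, 19 were tested. The list includes phosphatases that can also activate Src family kinases, so it is not one of inhibitors alone. UBASH3B (Sts-1), a phosphatase that removes phosphate from SYK and ZAP70, was the one that passed in either comparison with DU145KO+α2, 1 of 19 beside 11.9% and 8.17% of all genes. It had 96.8 to 107 CPM in DU145KO+α2, 58.6 to 76.9 CPM in DU145KO+vector and 49.9 to 66.6 CPM in DU145KO. UBASH3B rose by 0.54 against DU145KO+vector (edgeR adjusted p = 0.00196) and by 0.71 against DU145KO (SE 0.0996, edgeR adjusted p = 0.000325) on the log2 scale, without overlap between the lines. The group median was 0.08 and 0.05, and with the replicate block 6 and 4 of 19 regulators passed, all of them higher, where 26.5% and 22.3% of all genes passed in either direction. CSK, the kinase that inactivates the Src family, was at −0.03 against DU145KO+vector (edgeR adjusted p = 0.887). CBLC, the epithelial member of the Cbl ubiquitin ligases, was lower in DU145KO+vector than in DU145KO by −0.63 (edgeR adjusted p = 0.0327), and with the block 1 regulator was higher and 1 lower there.

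**Figure D5:**
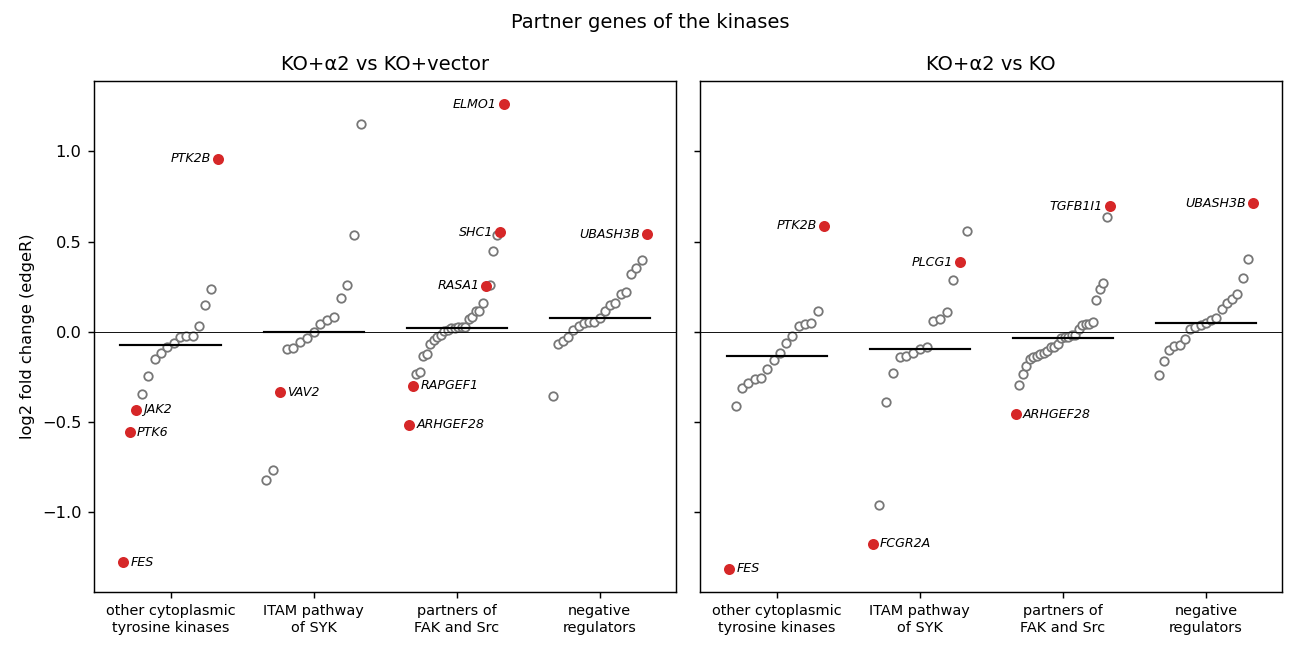
Log2 fold change of the tested genes of 4 partner groups in DU145KO+α2 against DU145KO+vector (left) and DU145KO (right). Each circle is a gene, red where the edgeR adjusted p is below 0.05, and bars mark the group medians, which lie between −0.14 and 0.08. PTK2B and UBASH3B lie high and FES low in both comparisons.

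The 5 genes whose pattern over the 12 samples was most like that of SYK were found among 12786 genes by the root mean square difference of centred log2 CPM. VWA2, UBA7, CYP4F3 and BSPRY were among them, with differences of 0.241, 0.317, 0.449 and 0.454, against 1.06 for the median gene and 0.826 for LYN. VWA2, an extracellular protein with von Willebrand factor A domains, had 7.98 to 10.6 CPM in DU145KO, 7.64 to 10.4 CPM in DU145KO+vector and 2.07 to 2.92 CPM in DU145KO+α2. Like SYK, VWA2 was also picked by the study on these samples. On the log2 scale these 4 differed by −1.87, −1.71, −1.49 and −1.26 from DU145KO+vector and by −1.83, −1.93, −1.72 and −2.11 from DU145KO, in the order named. BSPRY was also lower in DU145KO+vector than in DU145KO (log2 fold change −0.85, edgeR adjusted p = 0.00769), which SYK was not, and CYP4F3 has close paralogs that make its count uncertain. The measure finds genes that moved like SYK by construction, so these fold changes are a description.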

How the data were processed

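Spheroids of 3 lines with 4 replicates each were sequenced from stranded mRNA libraries as single-end 50-base reads in 2 lanes. Per the submitters' processing notes, the authors used bcl2fastq 1.8.4, TopHat 2.1.0, Subread 1.5.0 and hg38. The authors counted uniquely aligned reads per gene and deposited these counts without normalization. The authors also deposited RPKM values, scaled by TMM factors and gene length. The strand setting of the counting is not given in the sources used here. No column of another sample was present.

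Counts were tested in R 4.3.3 with edgeR 4.0.16 (TMM, filterByExpr with a minimum count of 10, robust quasi-likelihood F-test, all 12 samples in 1 model), 2-sided, with Benjamini-Hochberg adjustment over 14732 genes. CPM were scaled by TMM, and RPKM were used for levels between genes. Single kinases were also compared by an exact permutation test. DE means an adjusted p below 0.05 and a fold change above 2. The scripts were tested on simulated data. Replicate pairs of a line differed by more than sampling noise (chi-square per degree of freedom 7.39 to 25.4). The methods call the replicates biological without saying how they were cultured, and p-values measure the spread between these samples.

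Replicate numbers in the labels were read as possible pairs, and no label says what a number shares. The deviations from the line means of the 12 pairs with the same number correlated with r of 0.135 to 0.554. For 36 pairs with different numbers r lay between −0.29 and 0.149, with a mean of −0.126. Centring on the mean of 4 samples pulls this mean below 0 where pairs of the same number correlate, so it is not separate evidence of pairing.

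The genes named are the 6 kinases, ITGA2, genes of 4 lists and the 5 genes most like SYK. Of the lists, genes with an adjusted p below 0.05 are named, at most 6 per list and comparison. The lists hold 26 other cytoplasmic tyrosine kinases, 22 genes of the ITAM pathway, 30 partners of FAK and Src and 26 regulators listed as negative. Medians are given of the 10 tested genes on each side of each kinase. The kinases and lists were chosen with earlier results of these data known. The epithelial markers, FCER1G, CD79A, BCAR1, PXN, CRK, CSK, the single genes near SYK and LYN, and genes listed as absent were named beyond this rule after their values were seen. Positions, of 14655 tested genes, and start windows come from RefSeq on GRCh38.p14, and 3 of the 6 kinases had a window. Some genes within the naming rule or the marker lists are not reported here.

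Alternatives were normalization by DESeq2 1.42.0 size factors or by library size, testing by voom with limma 3.58.1 or by DESeq2, no filter, at least 10 counts in every sample, the 8 samples compared, the replicate block, an adjusted p alone, and each sample left out. Leaving out samples together with the block was chosen after seeing the data.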

Additional observations from a re-analysis of the deposited data

Results flagged for a closer look

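Among 87 groups of 4 replicates (29 genes in 3 lines), 6 had 1 sample that stood apart from the other 3 by Dixon's ratio of the gap to the whole range at the 95% level, where chance gives about 4.35. None of the 6 kinases was among them, and in every case the sample was replicate 1. PTK6 in DU145KO+α2 was at 3.66 CPM in replicate 1 and at 5.59 to 5.78 CPM in the others (ratio 0.91). PLCG1 in DU145KO+vector was at 85.0 CPM against 92.7 to 94.0 CPM (ratio 0.851). SHC1 was at 1150 CPM against 828 to 868 CPM in DU145KO (ratio 0.876) and at 907 CPM against 694 to 728 CPM in DU145KO+vector (ratio 0.838). UBASH3B in DU145KO+α2 was at 107 CPM against 96.8 to 97.4 CPM (ratio 0.941), and UBA7 in DU145KO at 4.96 CPM against 3.17 to 3.32 CPM (ratio 0.92).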

How the results depend on the processing

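Over the 24 results on the 6 kinases and on counts of genes, 681 of 738 alternative values were rated the same. For fold changes this means the same direction and side of the threshold. For counts of genes or kinases it means a value of similar size to the main count. SYK kept its direction and its call in all alternatives of both comparisons with DU145KO+α2. The calls depended on the threshold. With an adjusted p alone, 1754, 1203 and 344 genes passed in place of 325, 309 and 123 (DU145KO+α2 against DU145KO+vector, DU145KO+α2 against DU145KO, DU145KO+vector against DU145KO), and 2 of the 6 kinases in place of 1 in both comparisons with DU145KO+α2. With at least 10 counts in every sample, which tests fewer genes, 178, 160 and 61 passed. With the replicate block 218 genes passed between DU145KO+vector and DU145KO, and the calls of PTK2 and YES1 given with their results were gained. The block left the call of every other kinase as it was. In the fit without the block, 123 genes passed between DU145KO+vector and DU145KO. Leaving out 1 sample moved these 123 to between 79 (without DU145KO+vector replicate 3) and 196 (without DU145KO+vector replicate 1). The cause was not tested.

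Log2 fold changes near 0 changed sign. PTK2 in DU145KO+α2 against DU145KO was at 0.0006, and at −0.0062 with library size alone, −0.0011 with voom, −0.0009 with the stricter filter and −0.0002 with the replicate block. With 1 sample left out it lay between −0.0201 and 0.0361 (with the block, −0.0206 to 0.0347, the values below 0 being −0.0206, −0.0163, −0.011, −0.0007, −0.0004 and −0.0001). FYN lay between −0.0191 and 0.272 against DU145KO+vector, between −0.0069 and 0.3229 against DU145KO and, between DU145KO+vector and DU145KO, from −0.0835 to 0.1429 (with the block, −0.0784 to 0.1334, the values below 0 being −0.0784, −0.0612 and −0.0057). YES1 against DU145KO+vector lay between −0.001 and 0.0693 (with the block, −0.0014 to 0.0647). The depth limits FYN most, with 42 to 103 counts per sample, and SYK in DU145KO+α2, with 18 to 36.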
